A study of Caenorhabditis elegans with 6 samples.

Results

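The ionotropic glutamate receptor genes of Caenorhabditis elegans considered here are glr-1 to glr-8, nmr-1 and nmr-2. They were taken by their gene symbols in the array's platform table, whatever their values. Each of the 10 genes had 1 probe set, among 26192 probe sets that carried a gene and 29317 on the array. The series measured whole-worm RNA of the wild-type strain N2 on 6 one-colour Affymetrix arrays. The 3 exposed samples were hermaphrodites at the fourth larval stage (L4) that spent 24 h in 50% M9 buffer with 500 µg/mL BSA-SPIONs, which are superparamagnetic iron oxide particles coated with bovine serum albumin. The 3 control samples spent the same 24 h in 50% M9 buffer alone. Both groups had been raised from the first larval stage on agar plates with Escherichia coli OP50. No group received albumin alone or bare particles, so effects of the iron oxide and of the albumin cannot be told apart.

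Ionotropic glutamate receptors are cation channels that glutamate opens at synapses. In the worm, GLR-1 and its relatives resemble vertebrate AMPA and kainate receptors, and NMR-1 and NMR-2 are the subunits of the NMDA receptor. Several of them sit in the command interneurons that set forward and backward crawling, so their transcripts come from few cells of the animal. In whole-worm RNA, fewer cells of a type and less RNA per cell cannot be told apart.

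Values are log2 expression as deposited, and a difference of 1 is a doubling. Array medians were 3.64, 3.66 and 3.88 in exposed samples 1 to 3 and lay between 3.92 and 3.95 in the controls. Across probe sets, the correlation between arrays was 0.961 to 0.982 within the exposed group, 0.961 to 0.986 within the control group and 0.931 to 0.957 between groups. Over all tested probe sets, 681 had lower and 278 higher values in exposed worms, with an adjusted p under 0.05 in limma. This split depended on scaling, with 381 lower and 593 higher when array medians were made equal. The median log2 change was 0.05 as deposited and 0.27 with equal medians. Changes are given on the deposited scale. Control 3 stood apart, though not only for the receptor genes. It had the lowest control value in 8 of the 10, where it was the lowest control in 37.9% of all tested probe sets. Among the lists described below, it was also the lowest control in the mean of the neuron markers (6.75, against 7.52 and 7.64). The same held for the glutamate-gated chloride channels (4.78, against 5.93 and 6.10). It was the highest control in the mean of the hypodermis and sperm lists and lay between the others in the glial list. Its sample title gives it the number 3 and its source label the number 2. Results that rest on it are given with and without it.

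None of the 10 receptor genes passed the adjusted threshold in either direction. Across all tested probe sets 2.6% passed as lower and 1.06% as higher. The log2 change was below 0 for 9 of the 10 genes (44.7% of all tested probe sets), with a median of -0.40, although those of nmr-1 and nmr-2 turned positive with equal array medians. At an unadjusted p under 0.05, 2 genes, glr-1 and glr-4, were lower and 0 were higher, against 12.4% and 10.1% of all tested probe sets. In 0 of 10 genes were the groups separate, where exposed arrays lay entirely below the controls for 13.5% of all tested probe sets and entirely above them for 14.6%. The largest differences were in glr-5, glr-1 and glr-4, and in all 3 the value of control 3 lay within the exposed range.

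**Figure D1:**
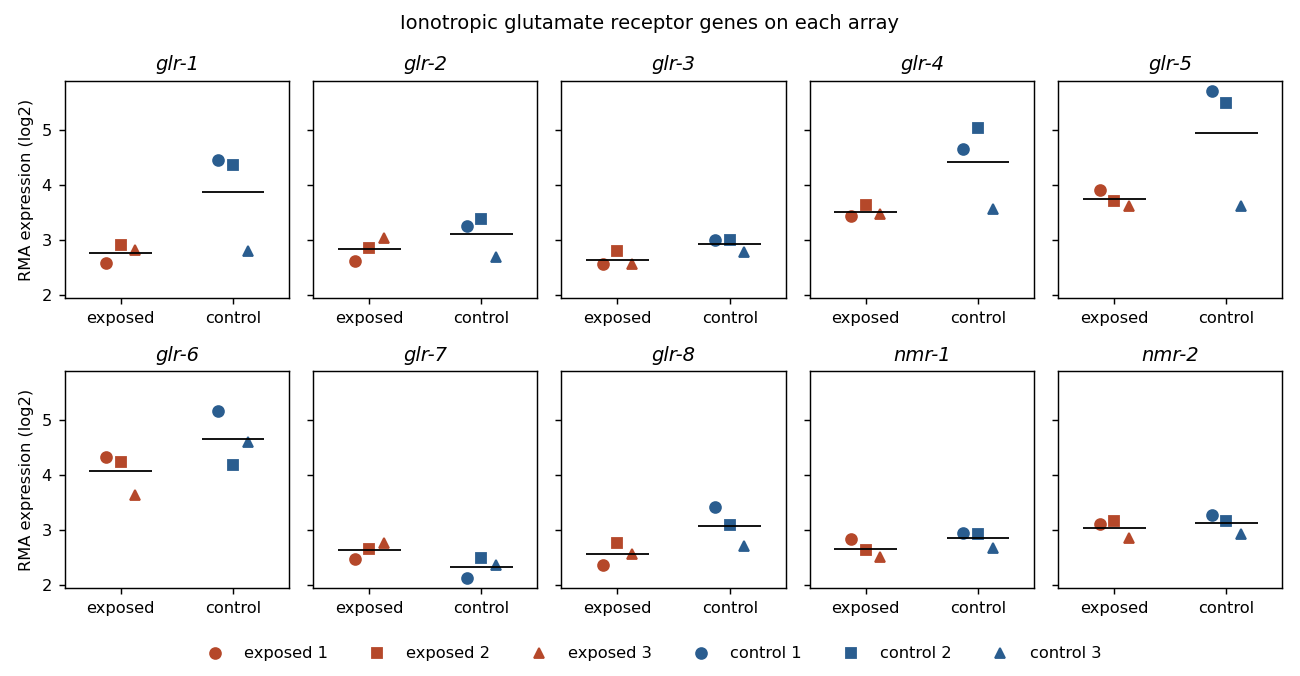
RMA expression (log2, vertical axis) of the 10 receptor genes in exposed (left) and control (right) samples, 1 panel per gene. Symbols mark the sample number and lines the group means. In glr-1, glr-4 and glr-5 controls 1 and 2 lie above all exposed samples and control 3 among them.

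The gene glr-1 encodes the AMPA-type subunit that mediates the avoidance response to nose touch through the command interneurons. Its values were 2.58, 2.91 and 2.81 in exposed worms, against 4.45, 4.37 and 2.80 in controls. Controls 1 and 2 were high and control 3 was level with the exposed samples, so the groups overlapped. The mean was 2.76 ± 0.17 in exposed worms and 3.87 ± 0.93 in controls (SD, n = 3 each). The log2 change was -1.11 (95% interval -2.12 to -0.10), which did not pass (adjusted p = 0.189 in limma, unadjusted p = 0.036). Control 3 was 1.61 below the mean of the other controls and 0.03 above the exposed mean (log2).

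The gene glr-2 encodes a subunit that assembles with GLR-1. Exposed worms had 2.61, 2.85 and 3.03, and controls had 3.25, 3.38 and 2.67. Control 3 again lay inside the exposed range, and the log2 change was -0.27 (95% interval -0.83 to 0.30, adjusted p = 0.557 in limma). These values were low on every array, between the 25.3 and the 43.4 percentile of all probe sets.

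The gene glr-4 encodes a non-NMDA subunit found widely in the nervous system. It was at 3.42, 3.63 and 3.46 in exposed worms, against 4.65, 5.03 and 3.56 in controls. As for glr-1, controls 1 and 2 were high and control 3 lay among the exposed samples. The log2 change was -0.91 (95% interval -1.76 to -0.06, adjusted p = 0.196 in limma). The gene glr-5, another non-NMDA subunit of the command interneurons, was at 3.90, 3.71 and 3.60 in exposed worms and at 5.70, 5.48 and 3.61 in controls. It had the largest log2 change of the family, -1.19 (95% interval -2.41 to 0.02, adjusted p = 0.228 in limma). Its control SD of 1.15 was also the widest, against an exposed SD of 0.15.

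On the deposited scale the NMDA receptor genes had the smallest log2 changes of the family. With equal array medians the change of nmr-2, 0.13, was larger in size than those of glr-2 (-0.055) and glr-3 (-0.072). The gene nmr-1, whose product carries the NMDA-type current of the command interneurons, was at 2.84, 2.64 and 2.5 in exposed worms and at 2.95, 2.92 and 2.68 in controls. Its log2 change was -0.19 (95% interval -0.62 to 0.24, adjusted p = 0.591 in limma). The gene nmr-2, which encodes the second NMDA subunit, was at 3.11, 3.16 and 2.86 in exposed worms and at 3.27, 3.17 and 2.93 in controls. Its log2 change was -0.08 (95% interval -0.52 to 0.36, adjusted p = 0.835 in limma). For both genes, sample 3 was the lowest of its group. The intervals leave room for a fall of up to 0.62 in nmr-1 and 0.52 in nmr-2 on the log2 scale.

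The genes glr-3 and glr-6 are known from the RIA interneurons, which link head sensory input to head movement, and GLR-3 also acts as a cold receptor in a gustatory neuron. Values of glr-3 were 2.55, 2.78 and 2.56 in exposed worms, against 3.0, 2.99 and 2.77 in controls. The groups overlapped only through exposed 2 and control 3, which differed by less than the spread within either group, and the log2 change was -0.29 (95% interval -0.70 to 0.13, adjusted p = 0.386 in limma). Values of glr-6 were 4.34, 4.24 and 3.63 in exposed worms, against 5.17, 4.18 and 4.6 in controls. Here control 2 was the lowest control, control 3 lay 0.07 below the mean of the other controls, and exposed 3 was the lowest sample of all. The log2 change was -0.58 (95% interval -1.31 to 0.15, adjusted p = 0.320 in limma).

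The genes glr-7 and glr-8 are known from neurons of the pharynx, the feeding organ. Values of glr-7 were 2.47, 2.65 and 2.77 in exposed worms, against 2.12, 2.48 and 2.37 in controls. It was the only receptor gene with a positive log2 change, 0.31 (95% interval -0.13 to 0.75, adjusted p = 0.381 in limma), and exposed 1 lay just under control 2. Its values reached at most the 27.3 percentile of all probe sets. Values of glr-8 were 2.37, 2.77 and 2.57 in exposed worms, against 3.42, 3.09 and 2.71 in controls. Its log2 change was -0.51 (95% interval -1.05 to 0.04, adjusted p = 0.255 in limma), and control 3 lay within the exposed range.

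The receptor probe sets were dim. Over the family, exposed values ran from 2.37 to 4.34 and control values from 2.12 to 5.70. For 6 of the 10 genes (glr-2, glr-3, glr-7, glr-8, nmr-1 and nmr-2) the value was below the array median on all 6 arrays, as it was for 39.6% of all tested probe sets. No gene was above the array median on all 6 arrays. RMA compresses differences at this end of the scale, and detection calls were not used here. In 9 of 10 genes the exposed SD was under 0.25, and glr-6 had the widest at 0.38. The control SD was above 0.5 in 3 genes, glr-1, glr-4 and glr-5. In the RefSeq annotation (assembly WBcel235) glr-4 overlaps srlf-1, nmr-1 overlaps F07F6.1 and nmr-2 overlaps hrde-2. Whether their probe sets read RNA of both genes was not tested.

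Leaving out control 3 changed the count of receptor genes called. Without it 3 genes fell and 0 rose at an adjusted p under 0.05 in limma, against 5.1% of all tested probe sets lower and 2.52% higher in that fit. In limma the fall was 3.62-fold in glr-5 (adjusted p = 0.0084), 3.13-fold in glr-1 (adjusted p = 0.010) and 2.52-fold in glr-4 (adjusted p = 0.019). Control 3 was singled out from these same receptor values, and it lay furthest below the other controls in these 3 genes. Leaving it out raises their change and lowers their control spread, so these p-values add no independent support. The other 7 genes did not pass, with glr-8 nearest at a log2 change of -0.69 (adjusted p = 0.116). Leaving out any of the other 5 arrays gave 0 calls of receptor genes in either direction. Their smallest adjusted p in limma was then between 0.265 and 0.395. Calls were also fewer over all tested probe sets, where 681 were lower and 278 higher with all 6 arrays. Lower calls there numbered 43, 551 and 233 without exposed 1, 2 and 3, and 58 and 47 without controls 1 and 2. Higher calls there ran from 6 to 267. In each of these fits the group left with 2 arrays is assumed to vary like the other group.

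**Figure D2:**
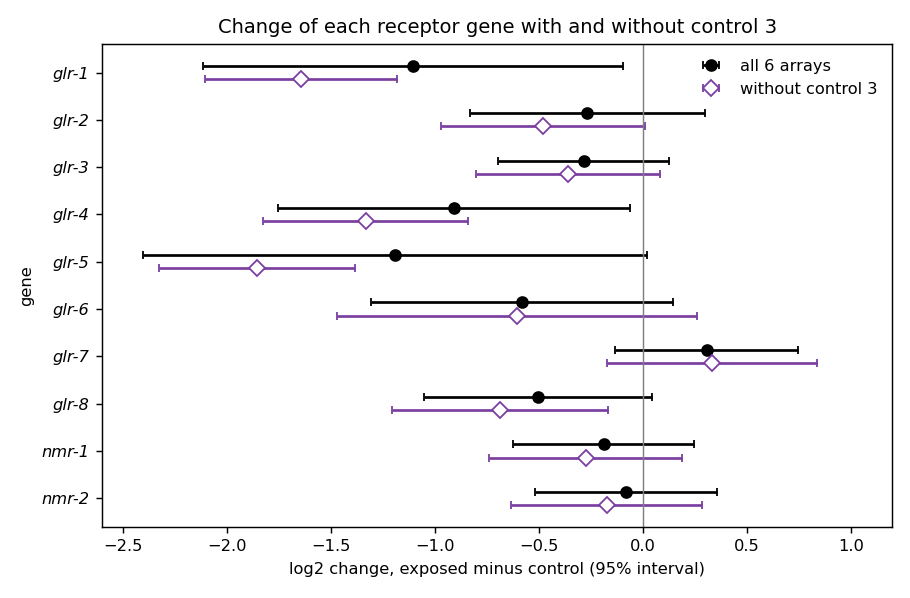
Log2 change, exposed minus control (horizontal axis), of each receptor gene with its 95% interval in limma, for all 6 arrays (filled circles) and without control 3 (open diamonds). Without control 3 the change of glr-5 is -1.86, of glr-1 -1.64 and of glr-4 -1.33, and that of nmr-2 is -0.18, against -0.08 with all 6 arrays.

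Among the genes, control 3 lay within the range of the exposed values for 8 of 10 (all but glr-6 and glr-7), control 2 for 2 and control 1 for 0. Over all tested probe sets the shares were 37.6%, 36.9% and 39.6%. Across the 6 arrays, which share the 2 groups, the values of glr-1 correlated with those of glr-4 at r = 0.98 and of glr-5 at r = 0.98. The correlation with glr-1 was 0.93 for glr-8, 0.90 for glr-3 and for glr-2, 0.73 for nmr-1, 0.67 for nmr-2, 0.48 for glr-6 and -0.59 for glr-7. These are descriptions over 6 arrays. They show glr-6 and glr-7 as the genes with the lowest Pearson r to glr-1.

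General neuron markers were lower in exposed worms. Of 17, 7 fell and 0 rose (10 did not pass), beside the 2.6% of all tested probe sets that were lower. For 16 of them all exposed arrays were below all controls, as for 13.5% of all tested probe sets. This count of 7 was 16 without control 3, 4 without exposed 2 and 4 without exposed 3, 1 without control 1, 1 without control 2 and 0 without exposed 1. Lower calls over all tested probe sets moved likewise, with 1335, 551, 233, 58, 47 and 43 in these fits, in the same order. The mean of the 17 markers was 6.0, 5.98 and 5.97 in exposed samples 1 to 3, against 7.52, 7.64 and 6.75 in controls 1 to 3. Control 3 thus lay between the other controls and the exposed samples on the neuron list. The mean of the 10 receptor genes was 3.02, 3.13 and 2.98 in exposed samples, against 3.80, 3.71 and 3.07 in controls, with control 3 inside the exposed range. Of the 17 markers, 1 had control 3 inside the exposed range. The median log2 change of the neuron list was -1.17. Over the 6 arrays, both groups pooled, Pearson r with the neuron marker mean was 0.93 for glr-4, 0.92 for glr-1 and 0.90 for glr-3 and glr-5. It was 0.86 for glr-8, 0.75 for nmr-1, 0.73 for glr-2, 0.57 for glr-6, 0.52 for nmr-2 and -0.71 for glr-7. The part of neuronal RNA as a whole in the receptor values was not tested.

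**Figure D3:**
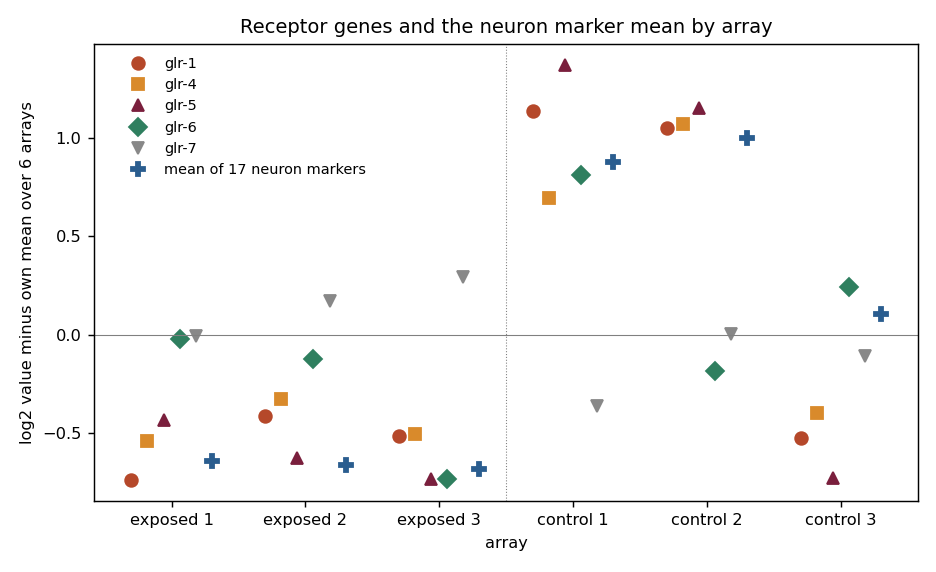
Log2 value minus its own mean over the 6 arrays (vertical axis) on each array (horizontal axis) for 5 receptor genes and for the mean of 17 neuron markers. On control 3 glr-1, glr-4 and glr-5 lie at the level of the exposed arrays, while the neuron marker mean lies above its exposed values.

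Other tissues also differed between the groups. Of 6 body wall muscle markers 1 fell and of 5 pharyngeal muscle markers 3 fell, and 0 rose in either list. Over all tested probe sets 2.6% were lower. At an unadjusted p under 0.05 in limma, 5 and 5 were lower and 0 higher, where all tested probe sets had 12.4% and 10.1%. All exposed arrays were below all controls for 5 and 4 of them, as for 13.5% of all tested probe sets. The median log2 changes were -1.09 and -1.29. The adjusted counts lower were 3 and 2 without control 3. Without control 1, control 2, exposed 2 or exposed 3 both were 0, and without exposed 1 they were 0 and 1. Lower calls over all tested probe sets moved between these fits too, as given beside the neuron list. The glial list (4 of 5 genes measured) had 0 calls in limma, 0 also at an unadjusted p under 0.05, with a mean of 3.68, 4.32 and 4.01 in exposed samples against 4.76, 4.48 and 4.54 in controls. Without control 3 it had 2 lower calls. Of 5 sperm markers 2 rose and 0 fell, a count that was 0 without exposed 1, exposed 3, control 1 or control 2. Higher calls over all tested probe sets numbered 6, 56, 8 and 6 in those fits, against 278 with all 6 arrays. Of 6 germline markers 0 passed in limma and 3 were higher at an unadjusted p under 0.05, with all 6 log2 changes positive and a median of 0.63. The hypodermis (6 genes) and intestine (5 genes) lists had 0 calls in limma. At an unadjusted p under 0.05, the hypodermis list had 1 lower and 0 higher and the intestine list 2 lower and 1 higher. Adjusted calls appeared in the intestine list without control 3 (2 lower) and in the hypodermis list without exposed 2 (1 lower). Of the neuron list, the synaptobrevin gene snb-1 was at 9.78 ± 0.09 in exposed worms and 10.14 ± 0.07 in controls (SD, n = 3 each), a log2 change of -0.36 that did not pass (adjusted p = 0.256 in limma). The syntaxin gene unc-64 fell and was at 8.66 ± 0.15 in exposed worms and 9.76 ± 0.17 in controls (SD, n = 3 each, adjusted p = 0.028 in limma).

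The genes most like the receptor family across arrays were sought with the mean of the 10 receptor genes, each centred on its own mean. Over 11635 probe sets with 1 gene and a range of at least 1 log2 unit, the closest were grk-2, cka-2, ZC581.3, gfi-1 and egl-21. Their Pearson r over the 6 arrays was 0.991 to 0.995. These are the highest of 11635 values, each over only 6 arrays, so their height partly reflects the choice. The gene grk-2 encodes a G protein-coupled receptor kinase that sensory neurons need for chemosensation. It was at 5.38, 5.41 and 5.23 in exposed worms, against 7.13, 6.80 and 5.34 in controls. Its control 3 lay among the exposed values, which follows from the choice, as control 3 is at the exposed level in the receptor mean. The gene egl-21, which is also in the neuron marker list, encodes a carboxypeptidase that processes neuropeptides. It stood at 7.77, 7.71 and 7.59 in exposed worms, against 9.19, 9.08 and 7.81 in controls. Neither passed in limma (adjusted p = 0.200 for grk-2 and 0.165 for egl-21).

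Other genes of glutamate signalling were taken as 6 lists with 42 entries, of which 40 were measured (nrap-1 and avr-15 matched no probe set). Of these 40 genes 2 fell, mgl-2 and cfi-1, and 1 rose, wdr-48. Over all tested probe sets the shares were 2.6% and 1.06%, as above. The log2 change was below 0 for 30 of 40, with a median of -0.36, where the median of all tested probe sets was 0.05. At an unadjusted p under 0.05, 15 of 40 were lower and 2 higher, where all tested probe sets had 12.4% and 10.1%. Without control 3, 11 of 40 were called lower and 1 higher, where all tested probe sets had 5.1% and 2.52%. The 11 were sol-1, unc-43, avr-14, glc-4, mgl-2, mgl-3, eat-4, glt-1, glt-3, glt-4 and cfi-1. Only mgl-2 and cfi-1 of these were called with all 6 arrays. In the mean of the 40 genes control 3 was the lowest control (5.55, against 6.02 and 6.14), so leaving it out raises their changes. Lower calls numbered 1 without exposed 2 and 0 without any of the other 4 arrays. Over all tested probe sets the lower calls in those fits ran from 43, without exposed 1, to 551, without exposed 2.

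Auxiliary subunits travel with the receptors and shape how they gate. Of 5 measured, 0 passed in limma, and 2 were lower and 0 higher at an unadjusted p under 0.05. The gene sol-1, whose CUB-domain product is needed for GLR-1 currents, was at 2.92, 3.11 and 3.14 in exposed worms, against 3.95, 4.49 and 3.37 in controls. Unlike for glr-1, all exposed samples were below control 3 (log2 change -0.88, adjusted p = 0.139). Its partner sol-2 had a log2 change of -0.78 (adjusted p = 0.160). The TARP-like genes stg-1 and stg-2 had changes of -0.39 and -0.48, and the cornichon gene cni-1, which acts in export of receptors from the endoplasmic reticulum, had 0.17.

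Genes that move, anchor or remove GLR-1 had log2 changes of both signs. Of 16 measured, 1 rose and 0 fell. The gene wdr-48, whose WD40 product activates the deubiquitinase that protects GLR-1 from degradation, was at 7.03, 7.04 and 6.92 in exposed worms, against 6.24, 6.14 and 5.86 in controls. All exposed samples were above all controls, and it rose 1.88-fold (adjusted p = 0.044 in limma). The call was lost without exposed 1, 2 or 3, control 1 or control 2, with adjusted p-values of 0.081 to 0.144 in limma. In each of these fits fewer of all tested probe sets were called higher than with all arrays. That deubiquitinase, usp-46, had a log2 change of 0.44 (adjusted p = 0.427), and the other activator, wdr-20, of 0.23 (adjusted p = 0.760). The gene unc-43, encoding the kinase CaMKII that controls transport of GLR-1, was at 7.68, 7.56 and 7.09 in exposed worms, against 8.68, 8.87 and 8.07 in controls. Its groups were separate, and its log2 change was -1.10 (adjusted p = 0.072). The ubiquitin ligase adaptor gene kel-8 had -0.62 (adjusted p = 0.120) and the kinesin gene klp-4 -0.56 (adjusted p = 0.176).

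Other classes of glutamate receptor held 1 call. Of the 3 metabotropic receptor genes, which encode G protein-coupled receptors, mgl-2 fell. It was at 3.09, 3.34 and 3.54 in exposed worms, against 4.77, 5.13 and 4.36 in controls, 2.69-fold lower (adjusted p = 0.030 in limma). The call was lost without exposed 1, 2 or 3, control 1 or control 2, with adjusted p-values of 0.060 to 0.113 in limma. In each of these fits fewer of all tested probe sets were called lower than with all arrays. All exposed samples were below all controls in mgl-1, mgl-2 and mgl-3, as for 13.5% of all tested probe sets. The log2 changes of mgl-1 and mgl-3 were -0.40 and -1.04 (adjusted p = 0.219 and 0.134 in limma). Their values were low, from the 38.4 to the 46.3 percentile of all probe sets for mgl-1 and from 32.3 to 54.8 for mgl-3. Of 5 glutamate-gated chloride channel genes, the family that ivermectin targets, 0 passed in limma, and 2 were lower and 0 higher at an unadjusted p under 0.05. These were glc-4, with a log2 change of -1.73 (adjusted p = 0.064), and avr-14, with -1.69 (adjusted p = 0.071). In contrast glc-1 was at 9.34, 8.96 and 9.49 in exposed worms, against 9.09, 9.34 and 8.72 in controls, with overlapping groups.

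**Figure D4:**
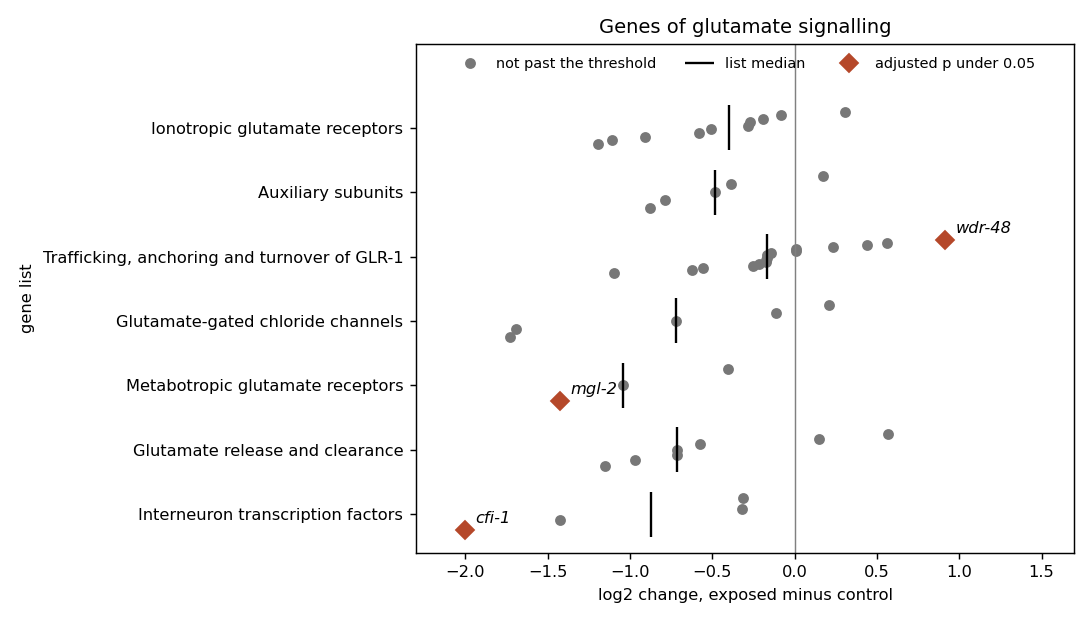
Log2 change, exposed minus control (horizontal axis), of the measured genes of the receptor family and of 6 lists of glutamate signalling. Diamonds mark the genes with an adjusted p under 0.05 (cfi-1, mgl-2 and wdr-48), circles the others and black lines the list medians, which run from -1.04 for metabotropic receptors to -0.17 for GLR-1 trafficking.

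Glutamate release and clearance genes had 0 calls among 7 in limma, with 3 lower and 1 higher at an unadjusted p under 0.05. The vesicular glutamate transporter gene eat-4, which defines glutamatergic neurons, was at 4.07, 3.65 and 3.45 in exposed worms, against 5.17, 5.60 and 3.84 in controls. Control 3 lay within the exposed range here too, and the log2 change was -1.15 (adjusted p = 0.183). The uptake transporter genes glt-3, glt-1 and glt-5 had log2 changes of -0.71, -0.97 and 0.57 (adjusted p = 0.083, 0.191 and 0.172). Exposed samples of glt-3 were all below its controls, and those of glt-5 all above.

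Transcription factors that specify the interneurons carrying these receptors had 1 call among 4 genes. The ARID factor gene cfi-1, which acts in the command interneurons AVD and PVC, was at 4.04, 4.71 and 3.68 in exposed worms, against 6.16, 6.44 and 5.84 in controls. All exposed samples were below all controls, control 3 included, and it fell 4.01-fold (adjusted p = 0.022 in limma). The call was lost without exposed 1, exposed 3, control 1 or control 2, with adjusted p-values of 0.054 to 0.090 in limma. In each of these fits fewer of all tested probe sets were called lower than with all arrays. The homeobox gene unc-42, needed for expression of glr-1 in several interneurons, was at 5.99, 5.72 and 3.71 in exposed worms, against 6.83, 6.14 and 6.72 in controls. Its groups were separate, but exposed 3 lay far below the other exposed samples, and the change of -1.42 did not pass (adjusted p = 0.200). The genes unc-3 and fax-1 had changes of -0.32 and -0.31 (adjusted p = 0.622 and 0.589).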

How the data were processed

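Per the submitters' processing notes, the authors made the deposited log2 expression values with RMA in Affymetrix Expression Console, which corrects background, quantile-normalizes arrays and summarises probe sets. Tool versions and genome build were not given in the sources used. No coordinates are printed. Of 29317 probe sets, 26192 had a gene in the array's platform table. These were fitted in R 4.3.3 by limma 3.58.1, using lmFit and then eBayes with no trend, exposed minus control, two-sided. Benjamini-Hochberg adjustment ran over all 26192 with a threshold of 0.05. All intervals are limma's 95% intervals, not adjusted for the number of genes. The procedure was tested on simulated data. An exact permutation test of 3 arrays against 3 cannot pass the threshold and was not used. The labels do not say whether samples came from separate cultures, so the p-values reflect only the spread among these samples, possibly technical. The number of arrays limits the precision.

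The members and gene lists were chosen with earlier results of these data known. Named are all receptor genes, up to 4 genes of each glutamate list by smallest p and others of those lists, the 5 genes most like the family, and the 2 brightest neuron markers. Lists are described by counts and medians, with no set test. In all, 3 list entries matched no probe set. The 15 alternatives changed scaling, variance model, array weights, probe sets fitted, pairing or the arrays used. Scanner files were not used here.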

Additional observations from a re-analysis of the deposited data

How the results depend on the processing

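The receptor genes called were 0 lower and 0 higher as deposited, and 0 higher in all 15 alternatives. The number lower became 3 (glr-1, glr-4 and glr-5) with array weights and 3 without both arrays numbered 3. The fit without both arrays numbered 3 also leaves out control 3, which was singled out from these same receptor values. Its calls thus add no independent support. Calls rose over all 26192 tested probe sets too, from 681 lower and 278 higher as deposited. They numbered 2143 and 1330 with array weights, and 1490 and 827 without both arrays numbered 3. With single arrays left out the number of receptor genes lower ran from 0 to 3, the 3 being without control 3. Of the receptor genes, 8 kept the sign of their log2 change in every alternative that fitted them. The change of nmr-1 turned to 0.024 and that of nmr-2 to 0.13 with equal array medians, and nmr-2 ran from -0.18 to 0.010 with single arrays left out, the positive value being without exposed 3. Dim probe sets were left out in 1 alternative, which fitted 3 of the receptor genes (glr-4, glr-5 and glr-6) and called 0. With controls 2 and 3 averaged the smallest adjusted p of a receptor gene in limma was 0.059.

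Lower calls in the 6 glutamate lists numbered 2 as deposited, 13 with array weights, 4 with controls 2 and 3 averaged, 12 without both arrays numbered 3, and 0 to 11 with single arrays left out. They were 0 without control 1, control 2, exposed 1 or exposed 3, 1 without exposed 2 and 11 without control 3. Over all tested probe sets the lower calls were 681 as deposited, 2143 with array weights and 698 with controls 2 and 3 averaged. Without both arrays numbered 3 there were 1490. The 1 higher call, wdr-48, became 0 with the trend and robust prior, with all deposited probe sets, with the replicate block and with controls 2 and 3 averaged, and 0 to 1 with single arrays left out. Of the 15 alternatives, the call was kept in 6 for wdr-48, 10 for mgl-2 and 11 for cfi-1, with adjusted p-values up to 0.144, 0.113 and 0.090. Same-numbered samples deviated together with r of 0.14, 0.08 and 0.25 for numbers 1, 2 and 3, so the numbers were not taken as pairs. With the replicate block 0 receptor genes passed (smallest adjusted p = 0.137) and 3 list genes were lower.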
